A study of Mus musculus with 7 samples.

Results

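The genes described here encode the protein parts of the spliceosome core and the heterogeneous nuclear ribonucleoproteins (hnRNPs) in mouse light zone germinal centre B cells. Members were the protein-coding genes of GENCODE vM21 whose symbols start with Hnrnp, Snrp, Sf3a, Sf3b, Prpf or U2af and that had at least 10 counts in 3 or more libraries. Of 57 genes with such symbols 54 met this minimum, out of 11637 identifiers that met it in a table of 48795. They split into 19 hnRNP genes and 35 spliceosome core genes. No measured difference entered the choice by symbol, although results of these data were known when the group was proposed.

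RNA was sequenced in bulk from B cells of the spleen, 3 libraries with the genotype MIZ1KO and 4 with the genotype Control. All mice had received sheep red blood cells, an antigen that raises germinal centres, by vein 10 days before collection, the controls included. The MIZ1KO titles carry LZ_MizFF and the Control titles LZ_eYFP; the allele behind each title, the Cre that deletes MIZ1, the sort markers, and the age and number of the animals are not stated by the labels. Because no label ties a library to its own animal, p-values here reflect how far the libraries of a genotype differ, in part perhaps for technical reasons. In a bulk sample, fewer cells of a type and less RNA per cell cannot be told apart.

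Splicing removes introns from the pre-mRNA and joins the exons. The U1 particle pairs with the 5′ splice site, U2AF and the U2 particle with its SF3A and SF3B subcomplexes mark the 3′ splice site and the branch point, and the U4/U6.U5 tri-snRNP with the Prp19 complex then forms the catalytic centre. hnRNPs coat the transcript and repress or favour nearby splice sites, and in lymphocytes hnRNP L and its relatives are known for silencing variable exons of CD45. MIZ1, the zinc finger factor encoded by Zbtb17, activates its own targets and represses others together with MYC, which itself drives many genes of RNA processing.

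Library totals ranged from 6896673 to 9482453 estimated counts, of which 3087992 to 5085019 lay outside ribosomal RNA. Zbtb17 measured 5.16, 3.70 and 4.50 CPM (the counts of a gene relative to the TMM-scaled library total) in MIZ1KO and 3.15, 3.42, 3.15 and 7.02 CPM in Control, 0.03 ± 0.46 as log2 fold change (SE; edgeR adjusted p = 0.975). A count over the whole gene includes exons outside a deleted part, so it does not check the genotype labels. Markers of germinal centre B cells, 8 of 8 detected, summed to 2827 to 3616 CPM in MIZ1KO and 2142 to 2568 CPM in Control, 6 light zone markers to 577 to 698 CPM and 538 to 869 CPM, 5 dark zone markers to 313 to 359 CPM and 334 to 361 CPM, and 5 markers of follicular B cells to 346 to 415 CPM and 293 to 338 CPM. Among other cells, 6 T cell markers summed to 1.72 to 16.9 CPM in MIZ1KO and 0.131 to 1.56 CPM in Control, 7 myeloid markers to 3.44 to 21.7 CPM and 3.42 to 7.35 CPM with C1qa and Fcgr1 at 0 in all libraries, 6 erythroid markers to 61.0 to 489 CPM and 115 to 425 CPM, and 6 plasma cell markers to 177 to 256 CPM and 205 to 377 CPM. The germinal centre B, follicular B and T cell sums of MIZ1KO lay above those of Control without overlap, and their part in the results on splicing genes was not tested.

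As a whole, the splicing genes took a like share of the transcripts in both genotypes. Of all counts that were not ribosomal RNA, the 54 genes held 1.34% ± 0.0838 in MIZ1KO and 1.34% ± 0.0584 in Control (SD, n = 3 and 4). By class, the hnRNP genes held 0.883% ± 0.0733 in MIZ1KO and 0.898% ± 0.0557 in Control. The core genes held 0.453% ± 0.0106 and 0.44% ± 0.00852, a difference larger than either SD, with overlapping libraries. In CPM, the 19 hnRNP genes summed to 4394 ± 406 in MIZ1KO and 4432 ± 612 in Control. The 35 core genes summed to 2253 ± 78.6 CPM and 2166 ± 215 CPM. Both differences in CPM were smaller than the SD of the Control libraries, and that of the core genes was larger than the SD of MIZ1KO. Single genes differed in both directions. All 54 passed the expression filter and entered the test, and 4 of them passed an adjusted p of 0.05 in the quasi-likelihood test of edgeR: Hnrnpul2, Snrpa and U2af1l4 were higher in MIZ1KO and Hnrnpr was lower. That is 7.41% of the members, beside 4.14% of the 9812 protein-coding genes (2.08% higher and 2.06% lower) and 5.96% of all 11618 genes tested (1.9% higher and 4.05% lower). With so few calls, the share among the members is close to that background. Without overlap between the genotypes stood 12 members, 8 higher and 4 lower in MIZ1KO, which is 22.2% of the members against 17.8% of protein-coding genes (9.89% higher and 7.93% lower) and 19.5% of all tested genes (8.74% higher and 10.8% lower). An unadjusted p under 0.05 was reached by 14 members, 25.9%, against 21.2% of protein-coding and 24.6% of all tested genes, and 33 members (61.1%) lay above 0 against 52.5% of protein-coding genes.

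**Figure D1:**
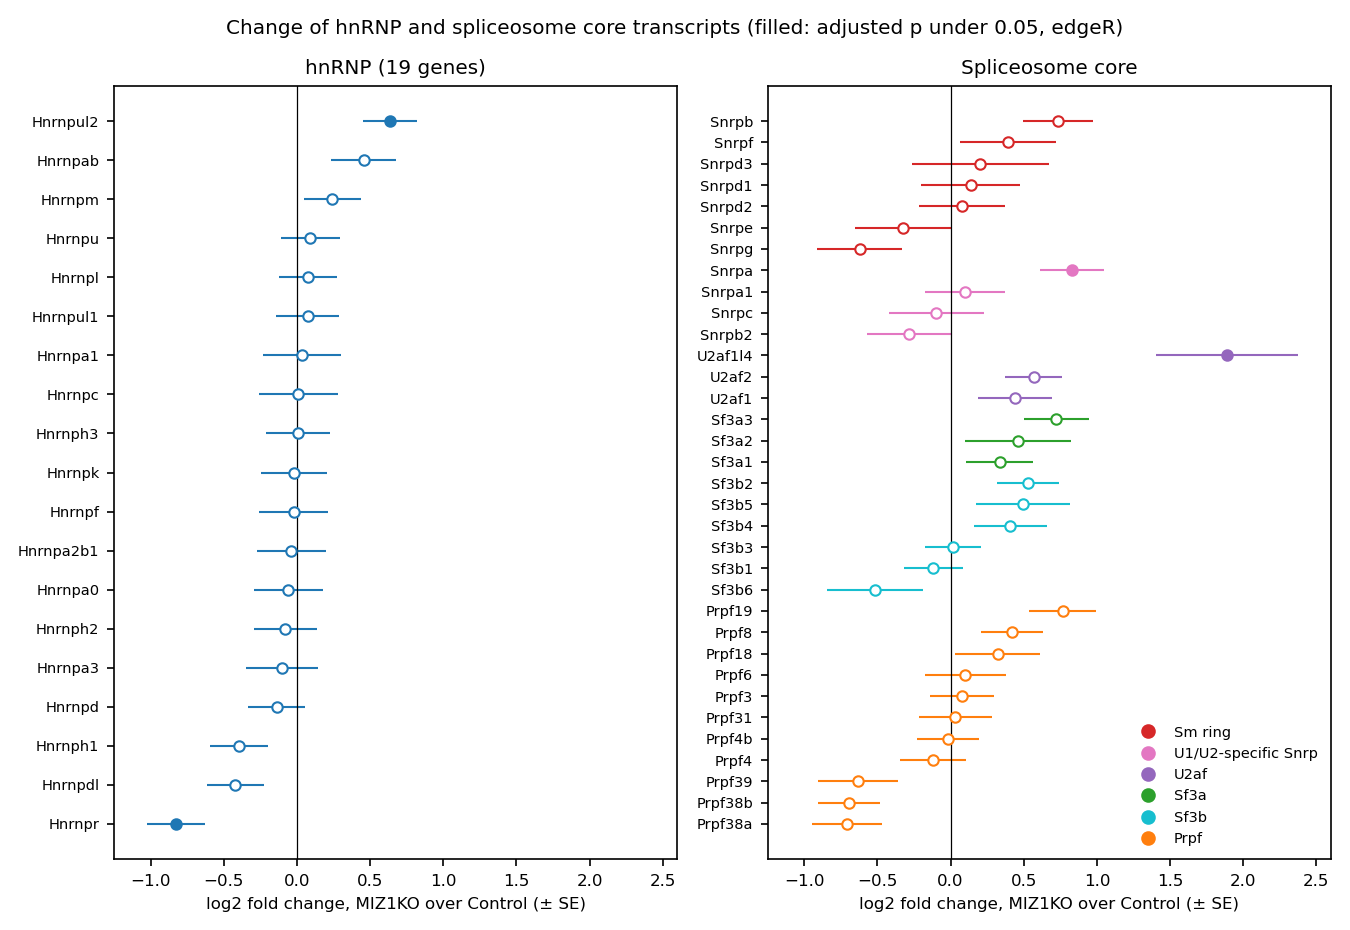
Log2 fold change of MIZ1KO over Control with its standard error for the 19 hnRNP genes (left) and the named spliceosome core genes coloured by role (right); filled circles passed an adjusted p of 0.05 in edgeR. Most hnRNP genes sit close to 0 with Hnrnpul2 and Hnrnpr at the ends, while the core genes spread more widely, and all 3 U2af and all 3 Sf3a genes lie to the right of 0 (Sf3a2 to the left under the GC and length correction).

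Among the hnRNPs, levels per kilobase of annotated exon differed widely while the genotypes rarely did. Ordered by the mean over all 7 libraries, Hnrnpa3, an hnRNP of the A/B class, was the most abundant at 128 CPM per kilobase in MIZ1KO and 138 in Control, followed by Hnrnpf, which binds runs of G, at 114 and 115, Hnrnpab at 122 and 88.9, Hnrnpa1, a classic splicing repressor, at 103 and 101, and Hnrnpa2b1 at 85.3 and 87.6. The order of Hnrnpf, Hnrnpab and Hnrnpa1 was not the same in the 2 genotypes. Hnrnpr stood last at 3.21 and 5.68 CPM per kilobase. Exonic length counts every annotated isoform, so genes with many isoforms appear lower on this scale. Of the 17 uncalled hnRNP genes, 13 lay within 0.15 of 0 on the log2 scale, and the like share of other genes was not taken. Their standard errors together with those of the called genes ran from 0.18 to 0.27. The median log2 fold change was -0.02, with 9 genes above 0 and 10 below, beside a median of 0.03 for protein-coding genes and -0.03 for all genes tested. A correction for GC content and length moved the hnRNP median to 0.21, with 14 genes above 0 and 5 below. The protein-coding median was then 0.019. Hnrnpc, which binds uridine tracts, had a log2 fold change of 0.01 ± 0.27, Hnrnpk, which binds cytidine-rich RNA, of -0.02 ± 0.23, and Hnrnpu, a nuclear scaffold protein, of 0.09 ± 0.20. Limits of 2 standard errors around the value ran from -0.53 to 0.55 for Hnrnpc, from -0.47 to 0.43 for Hnrnpk and from -0.31 to 0.49 for Hnrnpu. Changes within these limits were not excluded.

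Hnrnpr was the member that fell. It encodes an RNA-binding protein closely related to hnRNP Q and lies on the plus strand at chr4:136310942-136359447 (GRCm38). Its level was 63.6, 69.3 and 80.6 CPM in MIZ1KO against 105, 127, 126 and 145 CPM in Control. The highest MIZ1KO library was below the lowest Control library, and the log2 fold change was -0.83 ± 0.20 with an adjusted p of 0.0233 (edgeR). Leaving out MIZ1KO 1 (edgeR adjusted p = 0.172), MIZ1KO 2 (0.0675), Control 2 (0.0664) or Control 4 (0.112) ended the call, with log2 fold changes between -0.92 and -0.70 over all libraries left out in turn. A correction for GC content and transcript length brought the value to -0.38 ± 0.17 (adjusted p = 0.230), more than 1.5 times smaller.

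The promoter of Hnrnpr is shown because it holds the CCAAT box, in its reverse form ATTGG, more than once. The window is the 250 bases before the start site in RefSeq (GRCm38.p6, chr4:136310692-136310941, plus strand), with the 4 matches in capitals, and the second RefSeq window of the gene held 0.
Hnrnpr: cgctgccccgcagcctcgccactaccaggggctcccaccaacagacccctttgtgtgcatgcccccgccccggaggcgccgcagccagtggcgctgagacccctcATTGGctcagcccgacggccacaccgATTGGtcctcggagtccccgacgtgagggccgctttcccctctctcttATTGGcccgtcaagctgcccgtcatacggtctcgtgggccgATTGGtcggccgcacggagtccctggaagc
Of the 18 hnRNP genes with a window in that table, 13 (72.2%) held CCAAT on either strand, against 11 of 28 core genes (39.3%), 41.5% of 7803 tested protein-coding genes and 37.5% of all 27025 genes of the table. The hnRNP genes with the letters had a median log2 fold change of -0.02 and those without of 0.01. A match of letters is a description and not a site of binding.

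Hnrnpul2, an hnRNP U-like protein with roles in the DNA damage response, was higher in MIZ1KO. Its level was 161, 160.4 and 173 CPM in MIZ1KO against 92.5, 115, 106 and 111 CPM in Control. The libraries of each genotype lay close together and apart from the other, with means of 165 ± 7.01 and 106 ± 9.78 CPM (SD, n = 3 and 4). The log2 fold change was 0.64 ± 0.18 and the adjusted p 0.0490 (edgeR), so close to 0.05 that leaving out any library except Control replicate 1 moved it past the threshold, to between 0.0535 and 0.148. The gene lies at chr19:8820010-8834143 on the plus strand. Corrected for GC content and length it kept its size, at 0.61 ± 0.16 (adjusted p = 0.0505). The gene Hnrnpul1 of the same subfamily measured 0.07 ± 0.22 on the log2 scale.

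Hnrnpab, Hnrnpdl and Hnrnph1 had the next smallest p among the hnRNPs and did not pass. Hnrnpab, a CArG-box and RNA-binding protein, measured 344, 364 and 310.3 CPM in MIZ1KO and 299, 287, 181 and 222 CPM in Control, with no overlap and a log2 fold change of 0.46 ± 0.22 (adjusted p = 0.211, edgeR). Hnrnpdl, a relative of hnRNP D, measured 126, 132 and 108 CPM in MIZ1KO and 194, 158, 158 and 142 CPM in Control, again with no overlap (-0.42 ± 0.20, adjusted p = 0.194). Hnrnph1, which binds G runs like hnRNP F, averaged 157 ± 13.2 CPM in MIZ1KO and 206 ± 29.5 CPM in Control, with overlapping libraries and a log2 fold change of -0.40 ± 0.20 (adjusted p = 0.229, edgeR), which the GC and length correction moved to 0.03 ± 0.16.

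**Figure D2:**
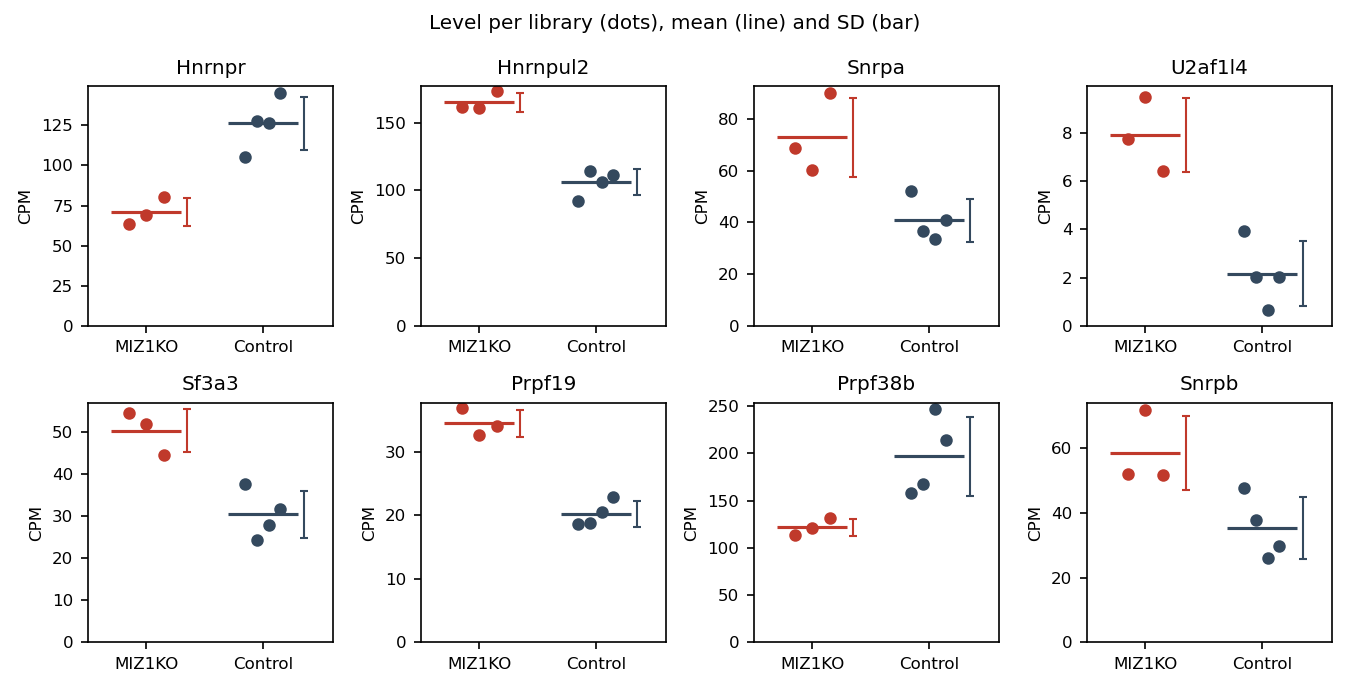
Level in CPM in each library for the 4 called genes (Hnrnpr, Hnrnpul2, Snrpa, U2af1l4) and 4 core genes just above the threshold, with the 3 MIZ1KO libraries on the left and the 4 Control libraries on the right of each panel; horizontal lines are means and bars the SD. In all 8 genes the libraries of the genotypes do not overlap, Hnrnpr and Prpf38b being lower in MIZ1KO.

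Among the core genes 24 of 35 lay above 0, their median log2 fold change was 0.10, and 2 were called, both higher in MIZ1KO. That is 5.71% beside 4.14% of protein-coding genes. The uncalled genes ran from -0.71 to 0.77. Without Control 1 the median was 0.37 and 8 core genes were called (Prpf38b, Prpf39, Sf3a3, Sf3b5, Snrpa, Snrpb, U2af1l4 and U2af2). In that fit 11.9% of all tested genes were called, beside 5.96% with all libraries, and the protein-coding median was 0.065. Without MIZ1KO 3 the core count was 1, in a fit that called 2.59% of all tested genes. Leaving out MIZ1KO 1, Control 2, Control 3 or Control 4 brought the core count to 0. Those fits called 0.324%, 1.8%, 3.79% and 1.27% of all tested genes.

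Snrpa, which encodes the protein A of U1, the one that binds a stem-loop of U1 snRNA, was the called gene among the proteins specific to the U1 and U2 particles. Its level was 68.7, 60.3 and 89.9 CPM in MIZ1KO against 52.3, 36.7, 33.5 and 41.0 CPM in Control. The lowest MIZ1KO library lay above the highest Control library, and the log2 fold change was 0.83 ± 0.22 (edgeR adjusted p = 0.0365). It was no longer called on leaving out MIZ1KO 1 (edgeR adjusted p = 0.123), MIZ1KO 3 (0.142), Control 2 (0.105), Control 3 (0.0544) or Control 4 (0.0823), nor once GC content and length were corrected for, at 0.47 ± 0.20 (0.195). Snrpa shares 327 exonic bases with BC024978 on the opposite strand, whose log2 fold change was -0.25 ± 0.33 (edgeR adjusted p = 0.691), and whether the counting used strand is not stated by the labels.

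The promoter of Snrpa is shown for the E-box CACGTG, the letters that MYC with its partner MAX is known to prefer. The gene lies on the minus strand at chr7:27187005-27196271, and the 250 bases before its start in RefSeq (GRCm38.p6, chr7:27196272-27196521, minus strand) hold 2 copies, in capitals; a further window of the gene held 1.
Snrpa: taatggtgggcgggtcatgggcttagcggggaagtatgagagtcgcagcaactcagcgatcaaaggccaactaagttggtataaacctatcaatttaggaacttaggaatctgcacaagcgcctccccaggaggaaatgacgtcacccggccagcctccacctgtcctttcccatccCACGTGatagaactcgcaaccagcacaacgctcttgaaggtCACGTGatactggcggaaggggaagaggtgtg
E-boxes stood in 6 of the 46 members with a window (13.0%; Hnrnpa3, Hnrnpd, Hnrnpf, Prpf3, Prpf39 and Snrpa), against 10.3% of tested protein-coding genes and 6.9% of all genes of the table. The 6 had a median log2 fold change of -0.06, the other 40 of 0.02. The letters read the same on both strands, and binding of MYC or MIZ1 was not measured in these libraries.

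The partners of Snrpa in the U1 and U2 particles did not pass the test. Snrpc, protein C of U1 that steadies the contact with the 5′ splice site, averaged 14.9 ± 7.26 CPM in MIZ1KO and 16.3 ± 3.11 CPM in Control, a log2 fold change of -0.10 ± 0.32. Snrpa1, protein A′ of U2, measured 46.9, 53.9 and 43.0 CPM in MIZ1KO and 73.8, 42.5, 30.8 and 32.3 CPM in Control (0.10 ± 0.27, edgeR adjusted p = 0.861). Snrpb2, protein B″ of U2 that pairs with it, measured 35.6, 47.5 and 33.1 CPM in MIZ1KO and 71.0, 55.7, 27.8 and 35.6 CPM in Control (-0.28 ± 0.28, adjusted p = 0.578). In both genes Control replicate 1 was the highest of the 7 libraries.

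The 7 Sm genes, whose proteins form the ring around U1, U2, U4 and U5 snRNA, spread widely between libraries of the same genotype. Their summed level was 341, 507 and 301 CPM in MIZ1KO and 621, 476, 211 and 357 CPM in Control. Control replicate 1 was highest and Control replicate 3 lowest, with all 3 MIZ1KO libraries between them. On the log2 scale the median SD of the Sm genes was 0.33 within MIZ1KO and 0.69 within Control, that of all 54 members 0.24 and 0.28, and that of protein-coding genes 0.36 and 0.39. Snrpg was the most abundant of the core genes per kilobase, at 65.1 CPM per kilobase in MIZ1KO and 100.4 in Control, while Snrpd3 was at 1.81 and 1.56.

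None of the 7 Sm genes passed edgeR; 2 had an unadjusted p under 0.05, Snrpb and Snrpg, and DESeq2 called 1, Snrpb. Snrpb, the B/B′ protein, measured 52.1, 71.7 and 51.8 CPM in MIZ1KO and 47.7, 37.8, 26.0 and 29.7 CPM in Control, with no overlap and a log2 fold change of 0.74 ± 0.24 (adjusted p = 0.0724, edgeR). Without Control replicate 1 it was called at 0.0162. The GC and length correction brought Snrpb to 0.47 ± 0.21 (edgeR adjusted p = 0.221). Snrpg measured 85.1, 143 and 78.3 CPM in MIZ1KO and 215, 183, 77.3 and 155 CPM in Control (-0.62 ± 0.29, edgeR adjusted p = 0.197). Its processed pseudogene Gm8186 is identical to it over 231 bases and held counts equal to 18.4% of those of Snrpg, and with both summed the value was -0.65 ± 0.29. Snrpf lay at 0.39 ± 0.33 and Snrpe at -0.32 ± 0.33, both with overlapping genotypes.

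**Figure D3:**
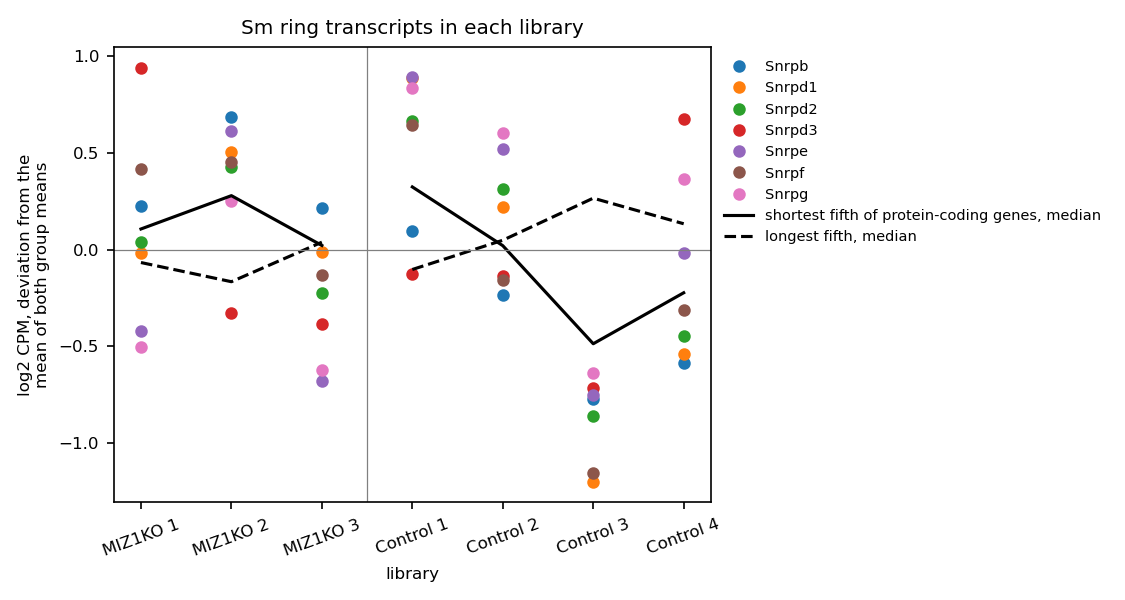
Deviation of log2 CPM from the mean of both group means for the 7 Sm ring genes in the 3 MIZ1KO libraries (left) and the 4 Control libraries (right); the solid and dashed lines give the median of the shortest and the longest 20% of protein-coding genes. Most Sm genes are high in Control 1 and MIZ1KO 2 and low in Control 3, as is the median of the short genes, while the long genes run the other way.

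The pattern across libraries was shared with other short transcripts. The shortest 20% of protein-coding genes by exonic length, up to 2.62 kb, had median deviations of 0.11, 0.28 and 0.02 in MIZ1KO and 0.32, 0.02, -0.49 and -0.22 in Control on the log2 scale, and the longest 20% had -0.07, -0.17 and 0.04 in MIZ1KO and -0.10, 0.05, 0.27 and 0.13 in Control. Across the 54 members, exonic length and SD within Control had a Spearman rho of -0.71, against -0.31 across 9812 protein-coding genes; these are descriptions over genes that share the same 4 libraries. The part of transcript length in the values of single Sm genes was not tested.

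The U2AF genes were the group with the highest median, 0.57 on the log2 scale, and all 3 lay above 0. Their summed level was 98.4, 109 and 105 CPM in MIZ1KO and 86.0, 64.6, 63.7 and 61.7 CPM in Control, without overlap. U2af2, the large subunit that binds the polypyrimidine tract, made up most of it, with 64.3, 67.8 and 69.8 CPM in MIZ1KO and 52.9, 42.3, 46.2 and 40.4 CPM in Control. The log2 fold change was 0.57 ± 0.20 and did not pass (edgeR adjusted p = 0.0892); DESeq2 called it, while the GC and length correction brought it to 0.17 ± 0.18 (adjusted p = 0.661), more than 3 times smaller. U2af1, the small subunit that reads the AG at the 3′ splice site, measured 26.4, 32.0 and 28.5 CPM in MIZ1KO and 29.2, 20.2, 16.8 and 19.2 CPM in Control (0.44 ± 0.25, adjusted p = 0.296). Its pseudogenes Gm18959 and Gm10232 held counts equal to 19.5% of its own, and with them added the value was 0.19 ± 0.22.

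U2af1l4 encodes U2AF26, a relative that can stand in for the small subunit, and was called with the widest fold change of the 54 members. It lies on the plus strand at chr7:30563301-30565365 and was measured at 7.74, 9.49 and 6.43 CPM in MIZ1KO against 3.93, 2.02, 0.656 and 2.01 CPM in Control. All MIZ1KO libraries lay above all Control libraries, with a log2 fold change of 1.89 ± 0.48 (adjusted p = 0.0322, edgeR), from as few as 5 counts in a library. The call ended once counts of an overlapping gene model were added, and the part of how reads were divided between the models was not tested. Gm49396, a protein-coding model on the same strand, shares 861 identical bases with U2af1l4 and measured 1.08, 1.90 and 0.161 CPM in MIZ1KO and 0.262, 0.778, 2.36 and 5.51 CPM in Control. Counts of both models together were 8.92, 11.4 and 6.60 CPM in MIZ1KO and 4.07, 2.80, 3.02 and 7.52 CPM in Control, where the genotypes overlap, and the log2 fold change of the sum was 1.01 ± 0.42 (edgeR adjusted p = 0.149). The shared bases made up 28.6% of the Gm49396 transcript, so the sum can also hold reads from the rest of that model. This sum was added after the values were seen. Leaving out MIZ1KO 1 (adjusted p = 0.118), MIZ1KO 2 (0.0677), Control 2 (0.0775), Control 3 (0.0661) or Control 4 (0.0868) ended the call as well.

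The SF3A genes lay above 0 in 3 of 3 cases, with a median of 0.46, and none passed edgeR; 1 had an unadjusted p under 0.05, and DESeq2 called the same 1, Sf3a3. SF3A joins the U2 particle to make its mature form. Sf3a3, at chr4:124714776-124732460 on the plus strand, measured 54.5, 51.8 and 44.6 CPM in MIZ1KO and 37.5, 24.4, 28.0 and 31.8 CPM in Control, with no overlap and a log2 fold change of 0.72 ± 0.22 (adjusted p = 0.0593, edgeR). It was the only member called once GC content and length were corrected for, at 0.80 ± 0.20 (adjusted p = 0.0466), where 2.12% of 11583 genes were called. Sf3a1 was at 0.34 ± 0.23 and Sf3a2 at 0.46 ± 0.36, both with overlapping libraries, and Sf3a2 changed sign under the GC and length correction, to -0.14 ± 0.34.

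None of the 6 SF3B genes passed edgeR or DESeq2, and 1, Sf3b2, had an unadjusted p under 0.05. Sf3b1, which holds the branch point adenosine and is a frequent target of mutation in blood cancers, had the highest level per kilobase of the group and measured 290.3, 347 and 294 CPM in MIZ1KO and 312, 351, 359 and 325 CPM in Control, a log2 fold change of -0.12 ± 0.20 (adjusted p = 0.774, edgeR). Sf3b2, a partner of Sf3b4, measured 107, 72.3 and 123 CPM in MIZ1KO and 71.6, 78.7, 62.2 and 66.0 CPM in Control (0.53 ± 0.21, adjusted p = 0.131), MIZ1KO replicate 2 being level with Control. Without that library it was called at 0.0459. Sf3b4 was at 0.41 ± 0.25 and Sf3b6, the small subunit that contacts the branch point region, at -0.52 ± 0.33. Sf3b6 and Sf3b5 were highest in MIZ1KO replicate 2 among the MIZ1KO libraries and in Control replicate 1 among the Control libraries.

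The Prpf genes moved both ways around a median of 0.04, and none of the 12 passed edgeR; 4 had an unadjusted p under 0.05 and DESeq2 called 2, Prpf19 and Prpf38b. Prpf19, the ubiquitin ligase that names the Prp19 complex, measured 36.9, 32.7 and 34.1 CPM in MIZ1KO and 18.6, 18.8, 20.5 and 23.0 CPM in Control. The libraries of each genotype lay close together and apart from the other, with a log2 fold change of 0.77 ± 0.23 and an adjusted p of 0.0545 (edgeR). The GC and length correction brought Prpf19 to 0.54 ± 0.21 (edgeR adjusted p = 0.174), and adding its pseudogene Gm7701 to 0.69 ± 0.23 (0.0833). Prpf38b lay on the other side, with 113, 121 and 131 CPM in MIZ1KO and 158, 168, 247 and 214 CPM in Control (-0.69 ± 0.21, adjusted p = 0.0599). Corrected for GC content and length it was at -0.50 ± 0.18 (edgeR adjusted p = 0.127). Prpf38a, a protein of the precatalytic B complex, measured 18.2, 22.3 and 19.5 CPM in MIZ1KO and 37.4, 26.6, 33.9 and 32.4 CPM in Control, with no overlap (-0.71 ± 0.24, edgeR adjusted p = 0.0834). Prpf39, whose yeast counterpart belongs to the U1 particle, followed at -0.63 ± 0.28 with overlapping libraries (adjusted p = 0.167). Its value was -0.37 ± 0.27 without Control 3 and changed sign under the GC and length correction, to 0.13 ± 0.22, where Prpf38a was at -0.23 ± 0.23 (adjusted p = 0.633).

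The scaffold and tri-snRNP genes of the Prpf group did not pass the test. Prpf8, the large scaffold of the catalytic centre and the most abundant Prpf transcript at 47.2 CPM per kilobase in MIZ1KO and 35.3 in Control, measured 414, 279 and 364 CPM in MIZ1KO and 261, 254, 254 and 284 CPM in Control (0.42 ± 0.21, edgeR adjusted p = 0.226). Prpf3, Prpf4, Prpf6 and Prpf31, proteins of the tri-snRNP, had log2 fold changes of 0.08 ± 0.22, -0.12 ± 0.23, 0.10 ± 0.28 and 0.03 ± 0.25. The kinase gene Prpf4b was at -0.02 ± 0.21, and Prpf18, which acts in the second step of splicing, at 0.32 ± 0.29.

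Prpf19 and Sf3a3 are shown with the letters CCGGAAG, a core that ETS factors bind, since both genes lay close to the threshold and hold these letters. Both windows are from RefSeq (GRCm38.p6) on the plus strand, chr19:10894981-10895230 for Prpf19 and chr4:124714611-124714860 for Sf3a3, with the match or its reverse CTTCCGG in capitals; a further window of Prpf19 held 0.
Prpf19: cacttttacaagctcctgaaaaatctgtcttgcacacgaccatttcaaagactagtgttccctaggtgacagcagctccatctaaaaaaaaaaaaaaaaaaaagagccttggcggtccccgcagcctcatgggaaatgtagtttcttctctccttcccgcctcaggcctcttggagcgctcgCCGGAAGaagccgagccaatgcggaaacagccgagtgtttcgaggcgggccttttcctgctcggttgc
Sf3a3: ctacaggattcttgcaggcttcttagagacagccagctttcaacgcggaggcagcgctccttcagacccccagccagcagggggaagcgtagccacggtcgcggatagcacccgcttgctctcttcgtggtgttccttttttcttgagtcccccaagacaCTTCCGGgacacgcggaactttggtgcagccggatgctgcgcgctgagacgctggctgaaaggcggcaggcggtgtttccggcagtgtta
The letters stood on either strand in 12 of 28 core genes (42.9%) and 2 of 18 hnRNP genes (11.1%), against 18.5% of tested protein-coding genes and 7.8% of all genes of the table. The 12 core genes with them had a median log2 fold change of 0.05 and the 16 without of 0.09.

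Direction among the 54 members went with the base composition of their transcripts. Of 17 members with a GC content of 50% or more, 16 lay above 0 (median log2 fold change 0.44), while 17 of 37 below 50% did, with a median of -0.02. The same split was present across protein-coding genes, of which 70.4% of those at or over 50% GC and 36.4% of those below lay above 0, with medians of 0.28 and -0.15. Spearman's rho of GC content and fold change was 0.64 over the 54 members, 0.51 over the hnRNPs, 0.68 over the core genes and 0.47 over 9812 protein-coding genes, a description over genes measured in the same 7 libraries. The RNA of the libraries also differed between genotypes in other ways. Models of the class TEC, mostly unspliced single-exon models, made up 0.690% ± 0.204 of non-ribosomal counts in MIZ1KO and 1.79% ± 0.653 in Control. Malat1, a nuclear RNA of the speckles where splicing factors gather, made up 0.352% ± 0.122 and 1.15% ± 0.354 (SD, n = 3 and 4). Neither share overlapped between the genotypes. Their part in the fold changes of splicing genes was not tested. Once GC content and length were corrected for, the hnRNP median was 0.21 and the core median 0.23, and neither Hnrnpr nor Snrpa was called. The median of protein-coding genes was then 0.019 and that of all genes -0.03. With that correction not held to the TMM scale of each library, the hnRNP and core medians were 0.33 and 0.35 and the called members were Hnrnpul2, Sf3a3, Snrpf and U2af1l4. That setting also moved the median of protein-coding genes to 0.14 and that of all genes to 0.091.

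**Figure D4:**
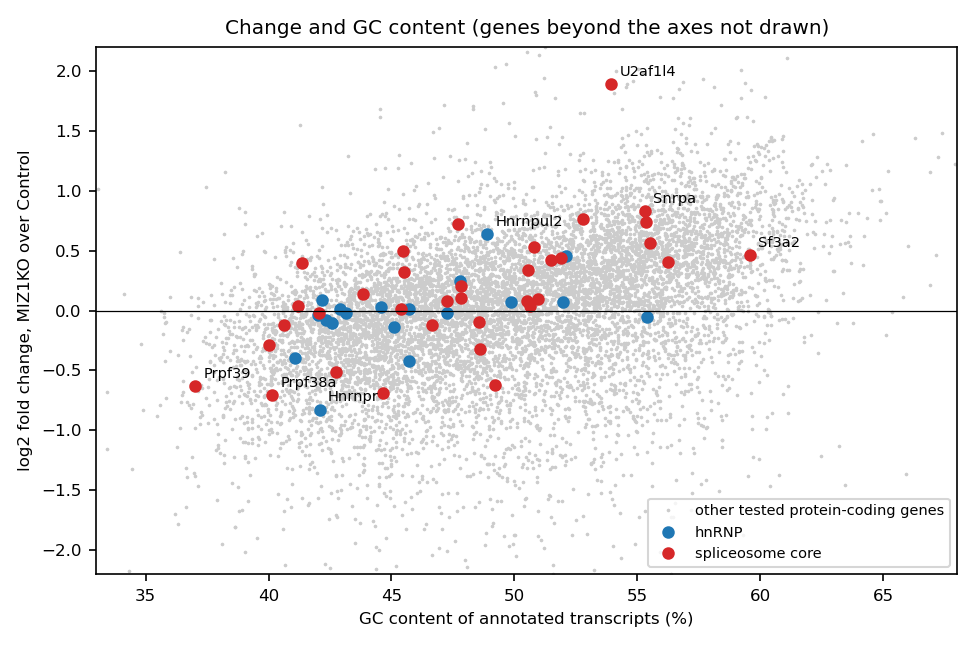
Log2 fold change of MIZ1KO over Control against the GC content of the annotated transcripts, with hnRNP genes in blue, spliceosome core genes in red and the other tested protein-coding genes in grey. Members of low GC content such as Prpf39, Prpf38a and Hnrnpr lie below 0 (Prpf39 above it under the GC and length correction), and those of high GC content such as Snrpa and Sf3a2 above it (Sf3a2 below it under that correction), along the slope of the grey cloud.

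Other genes of the pathway lay on both sides of 0 as well. Of 67 further splicing genes, all tested, 46 (68.7%) lay above 0 with a median of 0.26, against 52.5% of protein-coding genes, and 4 were called (5.97%), 3 higher and 1 lower in MIZ1KO. That share is at the background of 4.14% of protein-coding and 5.96% of all tested genes. Gemin5, which binds snRNA for assembly of the Sm ring, measured 36.0, 26.0 and 38.3 CPM in MIZ1KO and 16.5, 17.0, 19.9 and 13.1 CPM in Control (log2 fold change 1.00 ± 0.26, edgeR adjusted p = 0.0306). Syf2 and Ddx41, a Prp19-related factor and a DEAD-box helicase of the catalytic spliceosome, rose by 0.86 ± 0.24 (0.0472) and 0.83 ± 0.24 (0.0490). Luc7l2, a U1-associated protein that shapes the choice of 5′ splice site, was the gene that fell, at 60.3, 79.2 and 125 CPM in MIZ1KO and 135, 145, 174 and 167 CPM in Control (-0.82 ± 0.24, 0.0477). Eftud2, the GTPase of the U5 particle, lay just past the threshold at 0.73 ± 0.21 (0.0504). Without Control replicate 1 the count of this list was 11, in a fit that called 11.9% of all tested genes. Leaving out MIZ1KO 1, Control 2 or Control 4 brought the count to 0, where 0.324%, 1.8% and 1.27% of all tested genes were called. Leaving out MIZ1KO 3 or Control 3 brought the count to 1, where 2.59% and 3.79% of all tested genes were called.

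A list of 27 symbols for hnRNP-like RNA-binding proteins gave 25 tested genes, since 1 symbol matched no gene and 1 gene was filtered out for low counts; their median was -0.08, 16 lay below 0, and 1 was called (4%). Tia1, which binds U-rich stretches beside weak 5′ splice sites, was the called gene, with 44.9, 56.0 and 32.7 CPM in MIZ1KO and 63.4, 76.4, 109 and 82.2 CPM in Control (-0.88 ± 0.24, edgeR adjusted p = 0.0372). The count of called genes in this list was 0 on leaving out MIZ1KO 1, MIZ1KO 3, Control 2, Control 3 or Control 4. Those fits called 0.324%, 2.59%, 1.8%, 3.79% and 1.27% of all tested genes. The count of this list was 2 without MIZ1KO 2 and 3 without Control 1, where 4.12% and 11.9% of all tested genes were called. Ptbp1, the polypyrimidine tract binding protein that is needed in germinal centre B cells, measured 333, 308 and 344 CPM in MIZ1KO and 219, 247, 190.2 and 236 CPM in Control (0.56 ± 0.20, adjusted p = 0.0978). Its libraries did not overlap between the genotypes, and it did not pass.

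**Figure D5:**
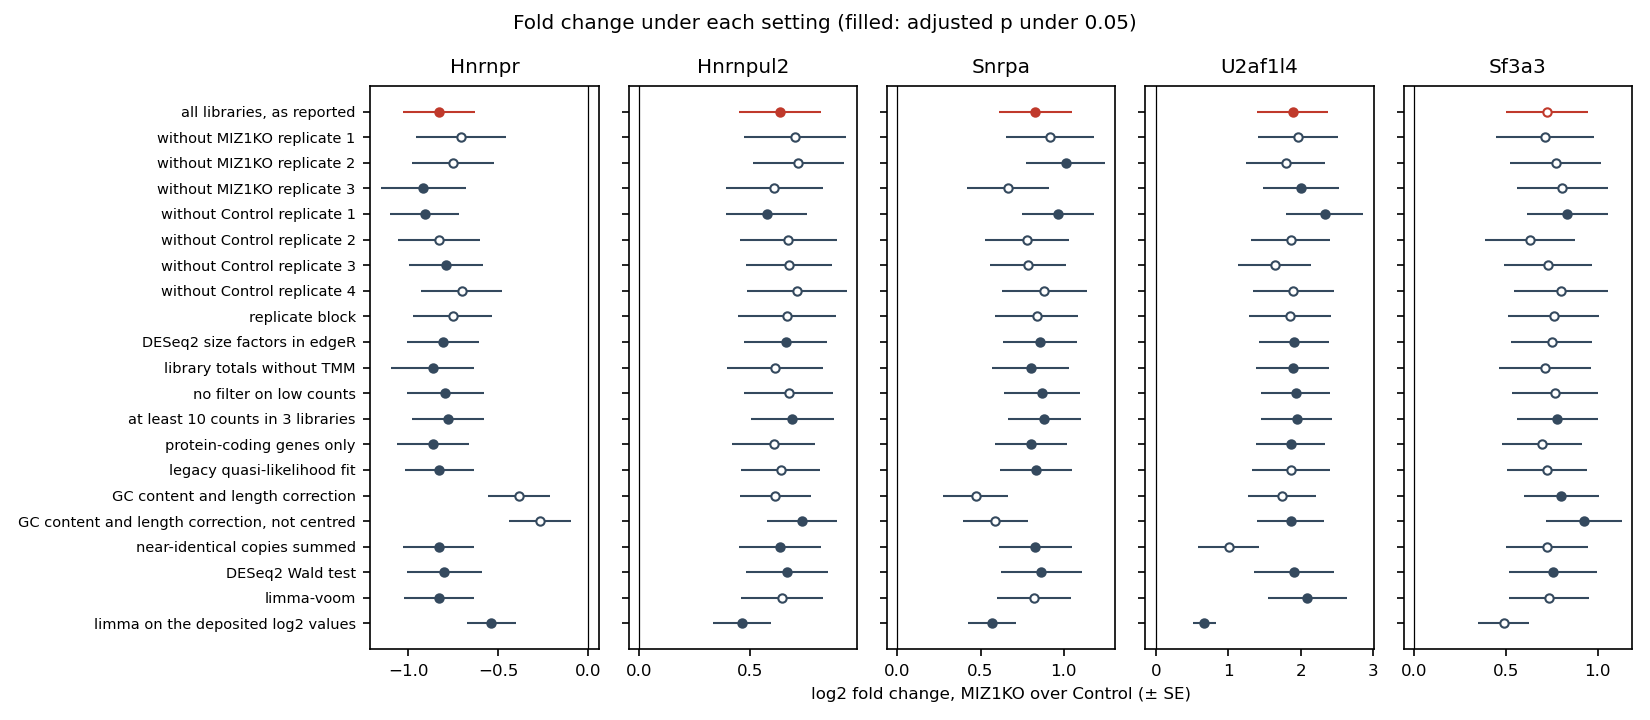
Log2 fold change of MIZ1KO over Control with its standard error for the 4 called genes and Sf3a3 under each setting, with filled points where the adjusted p was under 0.05 and the values as reported in red at the top; each panel has its own axis. Direction is the same in every row for all 5 genes, whereas the filled points vary: all 5 genes are filled without Control 1, none without MIZ1KO 1, Control 2 or Control 4, and Sf3a3 alone with the GC and length correction.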

How the data were processed

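Bulk RNA-seq of 7 samples, 3 MIZ1KO and 4 Control by the genotype label, was analysed from a table of expected counts (estimated reads per gene) that the authors deposited without normalization, and from their deposited log2 values, used as an alternative. STAR 2.5.2, RSEM 1.3.0, DESeq2 1.18.1, R 3.4.3 and the build GRCm38 appear, with no role, per the submitters' processing notes. The annotation, the use of strand and the handling of multi-mapped reads are not stated there. Of 48795 identifiers 48435 matched GENCODE vM21, 28933 had no counts, and 21.1% of the values above 0 (6.61% of all) were not exactly whole; counts were rounded before testing, by at most 0.5.

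Genes were filtered with filterByExpr, scaled by TMM over library totals that include ribosomal RNA (46.4% to 56.1% of counts), and tested by quasi-likelihood in edgeR 4.0.16 (glmQLFTest, R 4.3.3, robust), two-sided, with Benjamini-Hochberg adjustment over 11618 genes. Log2 CPM used a prior count of 2, and standard errors came from the fold change and the F statistic. The self-test ran on simulated data. Members, gene lists and tests were chosen with earlier results of these data known. Named genes were Zbtb17, every called member, in each role the 3 members with the smallest p and the one with the highest level per kilobase, and the called genes of both further lists. Outside this rule, Hnrnpab, Hnrnph1 and Prpf39, and Eftud2 and Ptbp1 of the further lists, are also given with an adjusted p. Other members are given as levels or fold changes.

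GC content is that of all annotated transcripts of a gene, and length that of its merged exons. Near-identical copies were sought with blastn 2.17.0 (at least 95% identity over 200 bases), which found pseudogenes of 17 members and none of 37. Promoter windows came from RefSeq (GRCm38.p6) and covered 46 of the 54 members. The GC and length correction was fitted per library; keeping it on the TMM scale was chosen after the values were seen. Alternatives also covered libraries left out in turn, scaling, filters, DESeq2 1.42.0, limma 3.58.1 and summed copies. Libraries of 1 genotype differed beyond sampling noise (lowest chi-square per degree of freedom 16.1), so each counted once. Single genes that are not reported here stayed in the tests and in the counts.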

Additional observations from a re-analysis of the deposited data

Results flagged for a closer look

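Zbtb17, the gene of MIZ1, was the single value marked by Dixon's test among the 30 named genes, of which chance would mark about 1 in 20. In Control replicate 4 it stood at 7.02 CPM, while the other 3 Control libraries lay between 3.15 and 3.42 CPM, and the gap to the nearest of them was 0.929 of the range of the group, over the critical value of 0.829 for 4 samples. The 3 MIZ1KO libraries, at 5.16, 3.70 and 4.50 CPM, were not tested, as groups of 3 were left out. No member of the hnRNP or spliceosome core genes that the naming rule took was marked within Control.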

How the results depend on the processing

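None of the 4 called members changed direction under the 20 alternatives, but 38 of their 80 values no longer passed; of 400 values for 20 uncalled members 16 passed and 9 changed sign. The cause was not tested unless stated. Over all genes 692 were called, 39 to 1350 with a library left out, 315 among protein-coding genes only, 245 after the GC and length correction (371 not centred), 1094 by DESeq2 and 342 by limma-voom. As shares these were 5.96% with all libraries, 0.324% to 11.9% with a library left out (11.9% without Control 1) and 8.51% by DESeq2. Among the 19 hnRNPs, with 2 calls, 0 to 2 were called with a library left out, 0 after the GC and length correction (1 not centred), and 1 each with library totals, no filter, protein-coding genes only, the legacy fit and limma-voom. Among the 35 core genes, with 2 calls, 0 to 8 were called with a library left out, 4 with the filter of 10 counts in 3 libraries, 7 by DESeq2, and 1 each with the legacy fit, summed copies, limma-voom and the GC and length correction, where it was Sf3a3 and neither of the 2. The other splicing genes had 4 calls, 0 to 11 with a library left out, 2 each with library totals, protein-coding genes only and limma-voom, 1 each without a filter and with the legacy fit, 0 after the GC and length correction and 7 by DESeq2. The hnRNP-like genes had 1 call, 0 to 3 with a library left out, 0 without a filter, 0 with limma-voom, 0 after either GC and length correction and 4 by DESeq2. The replicate block left 0 hnRNP, 0 core, 0 hnRNP-like and 1 other splicing gene called, with 476 over all genes; no label ties same-numbered libraries, whose deviations correlated at 0.02, 0.07 and 0.16, and not every library correlated best with its own number.

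The hnRNP median of -0.02 lay between -0.08 and 0.07 with a library left out, and at 0.21 after the GC and length correction (0.33 not centred). The core median of 0.10 lay between 0.059 and 0.37 with a library left out, and at 0.35 with the correction not centred. The protein-coding median was 0.065 without Control 1, 0.019 after the correction and 0.14 with the correction not centred. Without a filter the median of all genes moved to -0.14 and with DESeq2 to -0.15. Sign changes concerned uncalled values, in 26 of the 54 members under at least 1 alternative. Zbtb17, which is not a member, also changed sign. It ran from -0.093 to 0.51 with a library left out, and was at -0.001 among protein-coding genes and -0.58 after the correction (-0.46 not centred). Of the members, Hnrnpa3 ran from -0.22 to 0.06 with a library left out. After the correction Hnrnpa3 was at 0.21 (0.33 not centred), Sf3a2 at -0.14 (-0.017), Sf3b1 at 0.33 (0.45) and Snrpb2 at 0.23 (0.35), and, outside the naming rule, Hnrnph1 at 0.03 (0.15) and Prpf39 at 0.13 (0.26). Snrpd3 was at -0.37 without MIZ1KO 1. With 3 and 4 libraries and 5 to 8596 counts per member and library, small changes were not detectable at this depth.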

Other observations

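Genes that overlap a member on the opposite strand included some that changed. Phykpl, an enzyme of lysine breakdown whose model overlaps Hnrnpab, was lower in MIZ1KO at 22.0 CPM against 57.4 CPM in Control (log2 fold change -1.39 ± 0.25, edgeR adjusted p = 0.00950), whereas Hnrnpab itself was at 0.46 ± 0.22. Rufy2, which overlaps Hnrnph3, was lower at 15.7 CPM against 33.2 CPM (-1.10 ± 0.30, 0.0398), with Hnrnph3 at 0.01 ± 0.22. Samd10, which overlaps Prpf6, was higher at 13.1 CPM against 4.55 CPM (1.47 ± 0.39, 0.0353), with Prpf6 at 0.10 ± 0.28. In all, 26 of the 54 members overlap another gene model, and these genes were named after their values were seen.

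The 3 genes with matching symbols that missed the count minimum were Hnrnpll, Prpf40b and Snrpn. Hnrnpll, the relative of hnRNP L known for CD45 exon silencing and for the switch of immunoglobulin transcripts in plasma cells, had 0, 0 and 1 counts in MIZ1KO and 4, 2, 0 and 2 counts in Control. Prpf40b reached at most 12 counts in a library and Snrpn at most 8.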
